A study of Caenorhabditis elegans with 30 samples.

Results

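The nuclear genes for mitochondrial ribosomal proteins of *Caenorhabditis elegans* were taken as every row of the deposited tables that names 1 gene whose symbol is mrpl or mrps followed by a number. The rule gave 65 genes of the 25902 in the tables, each with 1 probe set. By name 38 belong to the large subunit and 27 to the small subunit. By their protein families 41 are counterparts of bacterial ribosomal proteins, 22 are specific to mitochondrial ribosomes and 2, mrps-18A and mrps-18B, are kept apart as paralogues of the bacterial-type mrps-18C. They lie on chromosomes I (14), II (12), III (21), IV (9) and V (9). A further 5 genes of the family stand in the tables under sequence names (mrpl-1, mrpl-44, mrpl-48, mrpl-58 and mrps-27), are not among the 65 and are given separately.

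Mitochondrial ribosomes translate the few messages of the mitochondrial genome, which in animals encode core subunits of the respiratory chain and of the ATP synthase. Their RNA comes from the mitochondrial genome, while their proteins are encoded in the nucleus, made in the cytosol and imported. In *C. elegans* the germ line and oocytes are rich in mitochondria, and lowering mrps-5 by RNAi is known to lengthen life and to switch on the mitochondrial unfolded protein response.

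Total RNA of whole young adults was measured on 30 arrays in 10 groups of 3. N2 wild-type animals were given the empty vector pL4440, RNAi against pmt-2 from the first larval stage on, or tunicamycin at 25 µg/mL for 4 hours. Tunicamycin blocks N-glycosylation. Animals labelled as knockouts of atf-6, ire-1 or pek-1 were given the vector or the pmt-2 RNAi. These genes encode the sensors of the unfolded protein response of the endoplasmic reticulum. Animals labelled as a pmt-2 knockout, also on the vector, serve per the labels to control for the RNAi. The sources used here name no alleles. The enzyme encoded by pmt-2 methylates phosphoethanolamine, a step toward the membrane lipid phosphatidylcholine. The plates of every group held IPTG (1 mM) and carbenicillin (25 µg/mL). Tunicamycin was given in M9 buffer, and for no other group is such a step described, so the effects of buffer and drug cannot be told apart.

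Values are log2 signals after RMA, and a change is a difference of 2 group means of 3 arrays on that scale, with its standard error (SE). The array medians lay between 3.74 and 3.89, and arrays of a group correlated at 0.98 or more. Nothing in the labels tells whether replicate arrays stem from different cultures, so the p-values measure the spread between arrays, which may be technical. pmt-2 fell by 3.51 with RNAi in wild type and by 5.44 in the pmt-2 mutant. ire-1 fell by 2.47 and pek-1 by 0.84 in their mutants, whereas the atf-6 probe set changed by -0.23 (adjusted p = 0.467) in the animals labelled as its knockout. Whether that probe set lies in the deleted part is not known, so it does not check the label.

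RNAi against pmt-2 in wild type lowered most of the mitochondrial ribosomal proteins. Of the 65 genes 56 fell and 2 rose (adjusted p below 0.05), with a median change of -0.60, where the median over all 28387 probe sets was -0.09. Over all probe sets 33.3% passed the same test, 17.7% as lower and 15.6% as higher. Among the 12992 probe sets with a mean of at least 5 in some group, a level that 64 of the 65 reach, 29.9% were lower. A share among brighter probe sets is given only here and for the pmt-2 mutant against wild type. Other shares are over all probe sets, dim ones included, and may lie below it. On 60 of the 65 genes all 3 RNAi arrays lay below all 3 vector arrays, which held for 23.5% of all probe sets. With the authors' deposited table and its FDR p-value, 33 of the 65 passed, where 10.1% of all probe sets did.

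**Figure D1:**
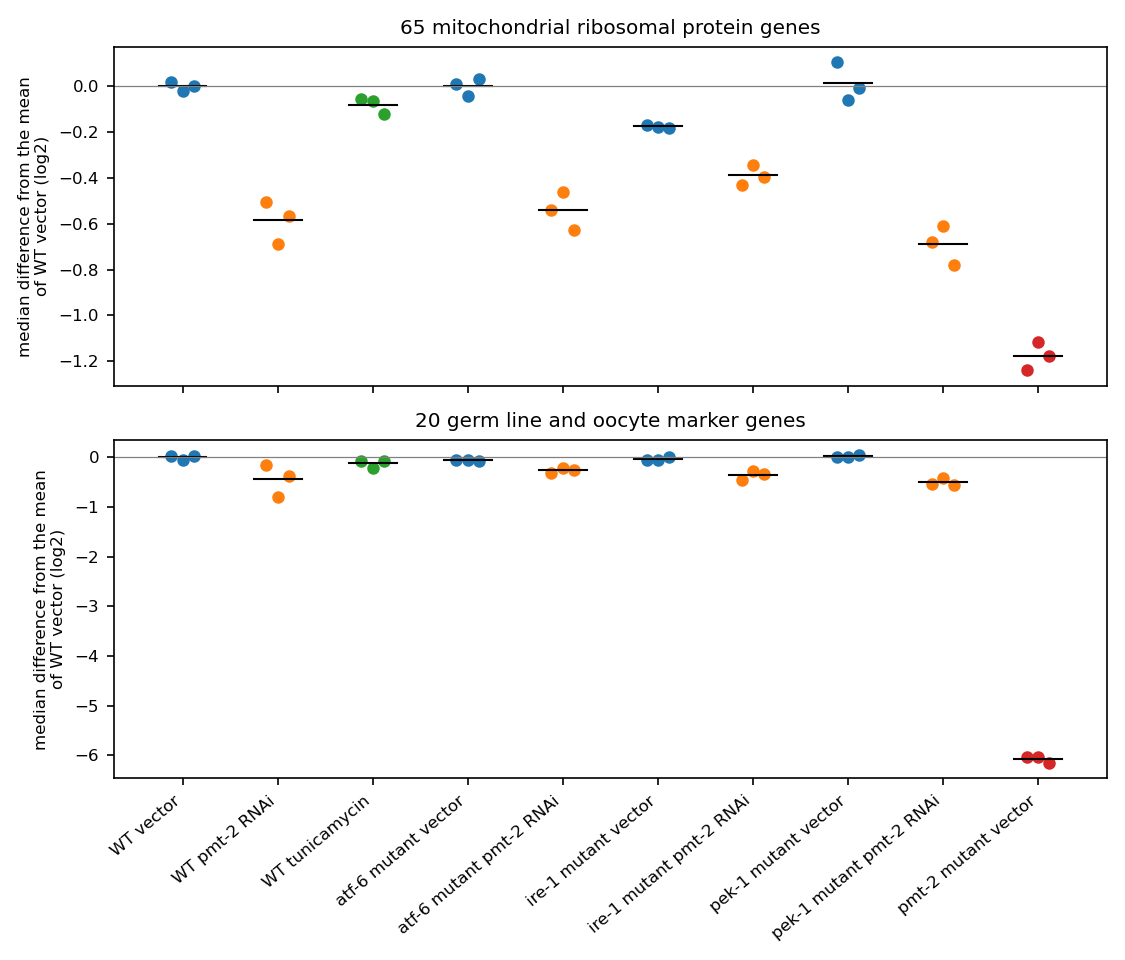
Median, over the 65 mitochondrial ribosomal protein genes (top) and over 20 germ line and oocyte markers (bottom), of each array's difference from the mean of the WT vector arrays, on the log2 scale. Points are arrays, 3 per group, and lines are their means. The 3 wild-type RNAi arrays stand at -0.50, -0.69 and -0.57 for the ribosomal proteins, and the pmt-2 mutant is lowest in both panels, on different scales.

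Of the 38 genes named for the large subunit 32 fell and 0 rose. The lowest change was that of mrpl-24 (F59A3.3, chromosome I: 5505398 to 5507026, minus strand, as the files give it, with a build not given in the sources used here). Its bacterial counterpart sits at the exit of the tunnel through which the new protein leaves. Its 3 vector arrays read 6.54, 6.50 and 6.42 and its RNAi arrays 5.64, 4.74 and 5.34. The groups did not overlap, and the second RNAi array stood well below the others. The change was -1.25 (SE 0.16, adjusted p = 9.81e-07), with an FDR p-value of 0.0671 in the authors' deposited table. At the same exit, mrpl-23 fell by 0.81 and mrpl-45, which in mammals ties the ribosome to the inner membrane, fell by 0.78. The authors' deposited table gives mrpl-23 an FDR p-value of 0.0503.

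The stalk of the large subunit recruits the translation factors, and its genes all fell. mrpl-12 (W09D10.3, chromosome III: 10707662 to 10708419, plus strand) read 7.82, 7.75 and 7.79 on the vector arrays and 7.02, 6.68 and 6.79 on the RNAi arrays. The RNAi arrays were lower without overlap, with a change of -0.96 (SE 0.10, adjusted p = 6.51e-08). mrpl-10, which anchors copies of the mrpl-12 protein, fell by 0.44 (SE 0.09), and mrpl-11 at the stalk base fell by 0.51 (SE 0.10). mrpl-20, an RNA-binding protein needed for subunit assembly in bacteria, fell by 0.93 (SE 0.17), and its RNAi arrays of 6.41, 5.55 and 6.31 again held a low second array. Its FDR p-value in the authors' deposited table was 0.123.

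A few large-subunit genes stood apart. mrpl-22, whose bacterial counterpart lines the exit tunnel, was level in all 10 groups: its group means ran from 7.16 to 7.29 and the F test over the 10 groups gave an adjusted p of 0.7315. It was the only member of the 65 that did not pass that test, which 70.5% of all probe sets passed. The SD of the 10 group means was lowest for mrpl-22 (0.05), mrps-11 (0.13) and mrpl-9 (0.14) and highest for mrps-28 (0.68), mrps-31 (0.69) and mrpl-24 (0.67). mrpl-14 changed by -0.02 with RNAi, mrpl-47 by -0.16 and mrpl-55 by -0.19, and none of these passed. In the RefSeq gene names mrpl-14 stands under a sequence name, F45E12.5, and no longer under an mrpl symbol.

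Of the 27 genes named for the small subunit 24 fell and 2 rose. The lowest was mrps-31 (C32A3.2, chromosome III: 3628223 to 3630349, minus strand), which has no bacterial counterpart. It read 7.90, 7.82 and 7.79 on the vector arrays and 6.94, 6.52 and 6.78 on the RNAi arrays. These did not overlap, and the change was -1.09 (SE 0.13, adjusted p = 2.78e-07). mrps-23, another mitochondria-specific protein, fell by 0.93 (SE 0.13). mrps-12, the counterpart of the bacterial protein of the decoding centre, fell by 0.43 (SE 0.11). Its FDR p-value in the authors' deposited table was 0.0876. mrps-5 read 8.06, 8.06 and 8.01 on the vector arrays and 7.93, 7.80 and 7.71 on the RNAi arrays. The groups were close without overlap, and the change of -0.23 (SE 0.09, adjusted p = 0.0487) no longer passed when any of 5 of these 6 arrays was left out, with changes from -0.18 to -0.25. Only without the first RNAi array did it still pass.

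mrps-10 and mrps-28 moved the other way. mrps-10, the counterpart of a protein of the bacterial subunit head, read 7.75, 7.74 and 7.80 on the vector arrays and 8.27, 8.21 and 8.54 with RNAi. The RNAi arrays were higher without overlap (0.58, SE 0.17, adjusted p = 0.00997). mrps-28 read 7.60, 7.72 and 7.75 against 8.09, 7.92 and 8.23, also without overlap (0.39, SE 0.13, adjusted p = 0.0175). Without the third RNAi array neither passed (0.48 and 0.32), nor did mrps-28 without the first vector array (0.35). By the FDR p-value of the authors' deposited table neither passed (0.0506 and 0.0919). In the other 3 genotypes mrps-28 changed with RNAi by 0.22 to 0.28 without passing, and mrps-10 rose in the pek-1 mutant and changed by 0.28 in the atf-6 and 0.43 in the ire-1 mutant without passing.

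Of the 22 mitochondria-specific genes 21 fell with RNAi (median -0.63), and mrpl-55 did not pass. Of the 41 bacterial counterparts 33 fell and 2 rose (median -0.52). The difference between these sets was not tested. The 5 family members listed under sequence names fell as well, between -0.25 for mrpl-48 and -0.95 for mrpl-58. mrps-2 and mrpl-4 are neighbours on chromosome V (8465596 to 8467135 and 8467244 to 8468922, both on the plus strand), 108 bases apart, and fell by 0.65 (SE 0.09) and 0.51 (SE 0.12). In the authors' deposited table their FDR p-values were 0.0130 and 0.117.

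**Figure D2:**
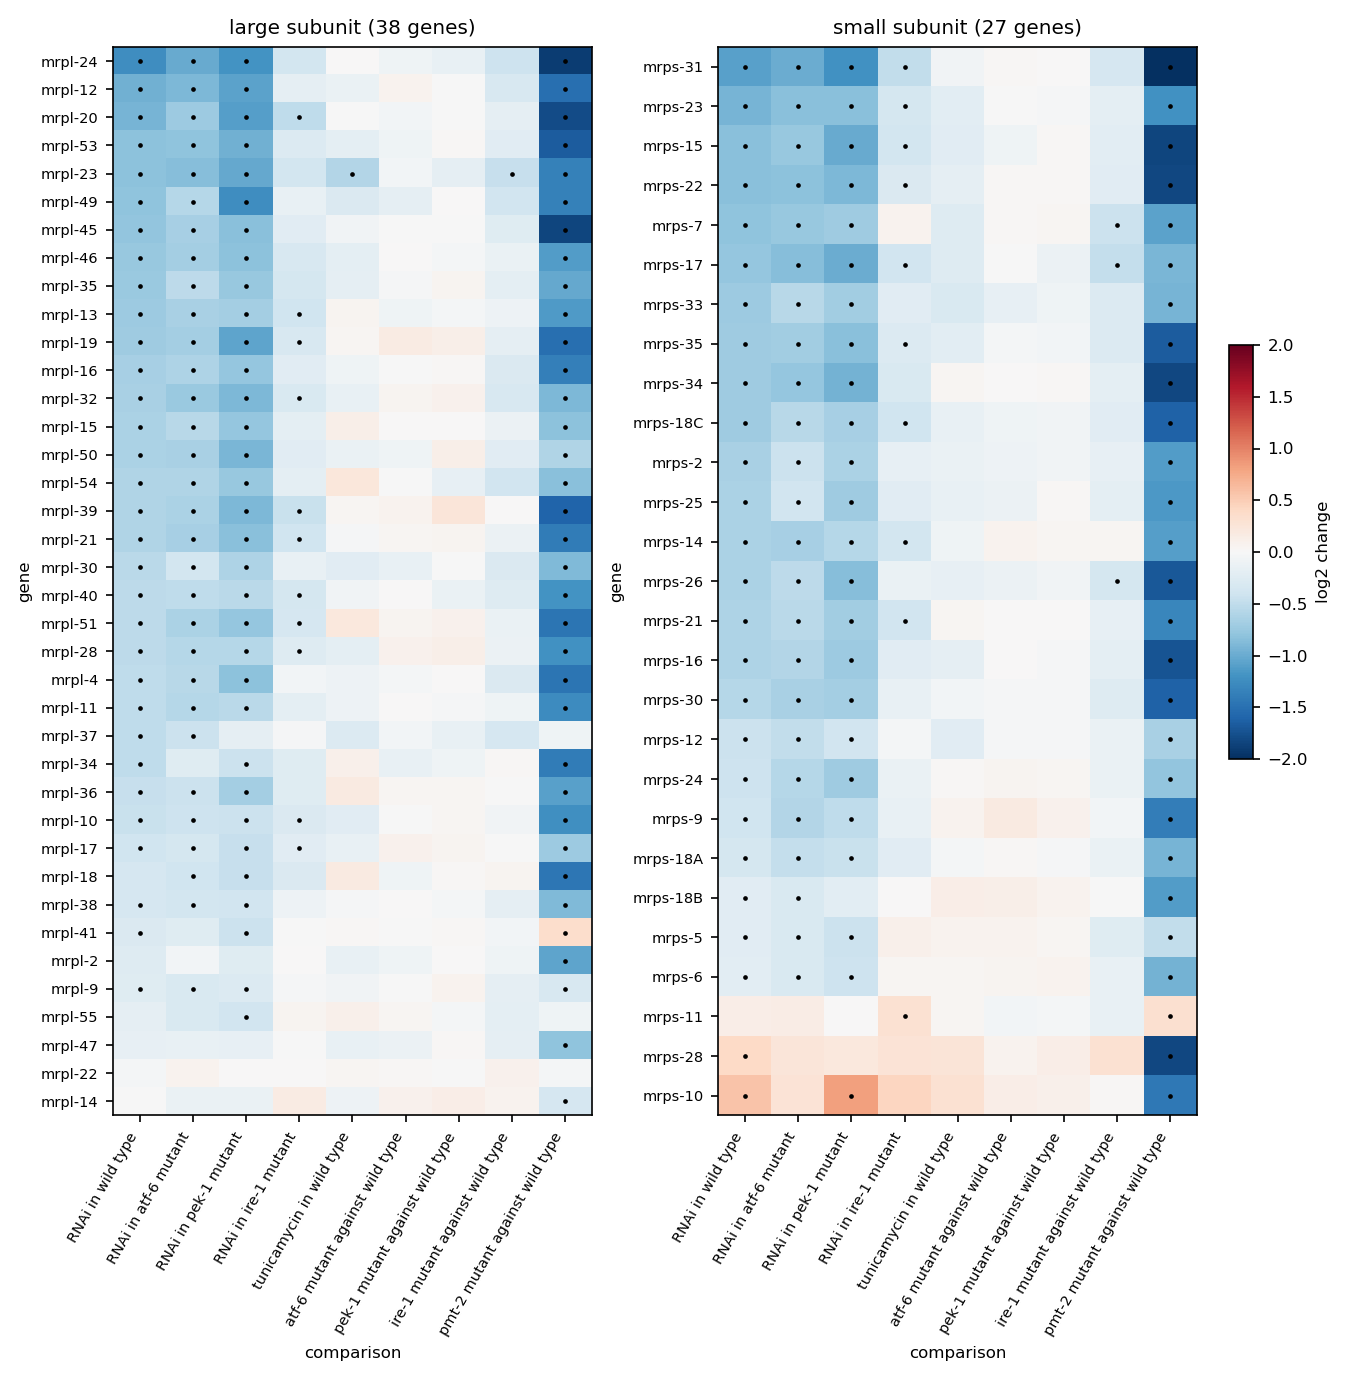
Log2 change of each of the 65 genes (rows, by subunit as named, ordered by the change with RNAi in wild type) in 9 comparisons (columns). Colour is the change, limited to 2 either way, and a dot marks an adjusted p below 0.05. The columns for RNAi in wild type, atf-6 and pek-1 mutants and for the pmt-2 mutant are blue in most rows, while those for tunicamycin and the atf-6 and pek-1 mutants on vector are pale, with dots in 1, 0 and 0 rows.

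The pmt-2 mutant showed larger falls against the same wild-type vector arrays. Of the 65 genes 60 fell and 2 rose, with a median change of -1.20 (median of all probe sets -0.13), or -1.32 with arrays centred on their medians. Over all probe sets 59.2% passed, 30.8% as lower and 28.4% as higher, and in the brighter probe sets 44.9% were lower. The mutant held the lowest of the 10 group means in 58 of the 65 genes, and the share of all probe sets for this count is not given here. In the mutant 7 of the 65 had a mean under 5, among them mrpl-24 (4.59) and mrps-22 (4.37). The lowest changes were those of mrps-31 (-2.02, SE 0.13), mrpl-24 (-1.89, SE 0.16), mrps-15 (-1.83, SE 0.11), mrpl-45 (-1.83, SE 0.11) and mrps-22 (-1.83, SE 0.10). mrps-31 read 5.95, 5.63 and 5.86, below all of its other arrays. mrpl-12 fell by 1.51 (SE 0.10), mrpl-11 by 1.26 and mrpl-10 by 1.23, while mrps-12 and mrps-5 fell by 0.65 and 0.49.

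mrpl-41 and mrps-11 rose in the pmt-2 mutant. mrpl-41, a mitochondria-specific protein of the large subunit, read 7.86, 7.84 and 7.75 in the mutant against 7.54, 7.44 and 7.40 on the vector, with no overlap (0.35, SE 0.10, adjusted p = 0.00367). mrps-11, the counterpart of a bacterial protein of the subunit platform, read 7.35, 7.67 and 7.65 against 7.20, 7.21 and 7.30 (0.32, SE 0.11, adjusted p = 0.0124). Its groups were close without overlap, and it no longer passed without the second (0.26) or the third (0.28) mutant array. Neither passed once arrays were centred on their medians (0.23 and 0.20).

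Compared directly, the pmt-2 mutant was below wild type on RNAi in 49 genes and above it in 2 (median -0.65), where 51.5% of all probe sets passed, 23.8% as lower and 27.7% as higher. mrps-28 and mrps-10 differed most, by -2.21 (SE 0.13) and -2.003 (SE 0.17). In the mutant mrps-28 read 5.68, 5.94 and 5.98 and mrps-10 6.18, 6.54 and 6.29, so that both were far below the vector arrays they exceed with RNAi. mrpl-41 (0.64, SE 0.10) and mrpl-37 (0.43, SE 0.13) were higher in the mutant than with RNAi.

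**Figure D3:**
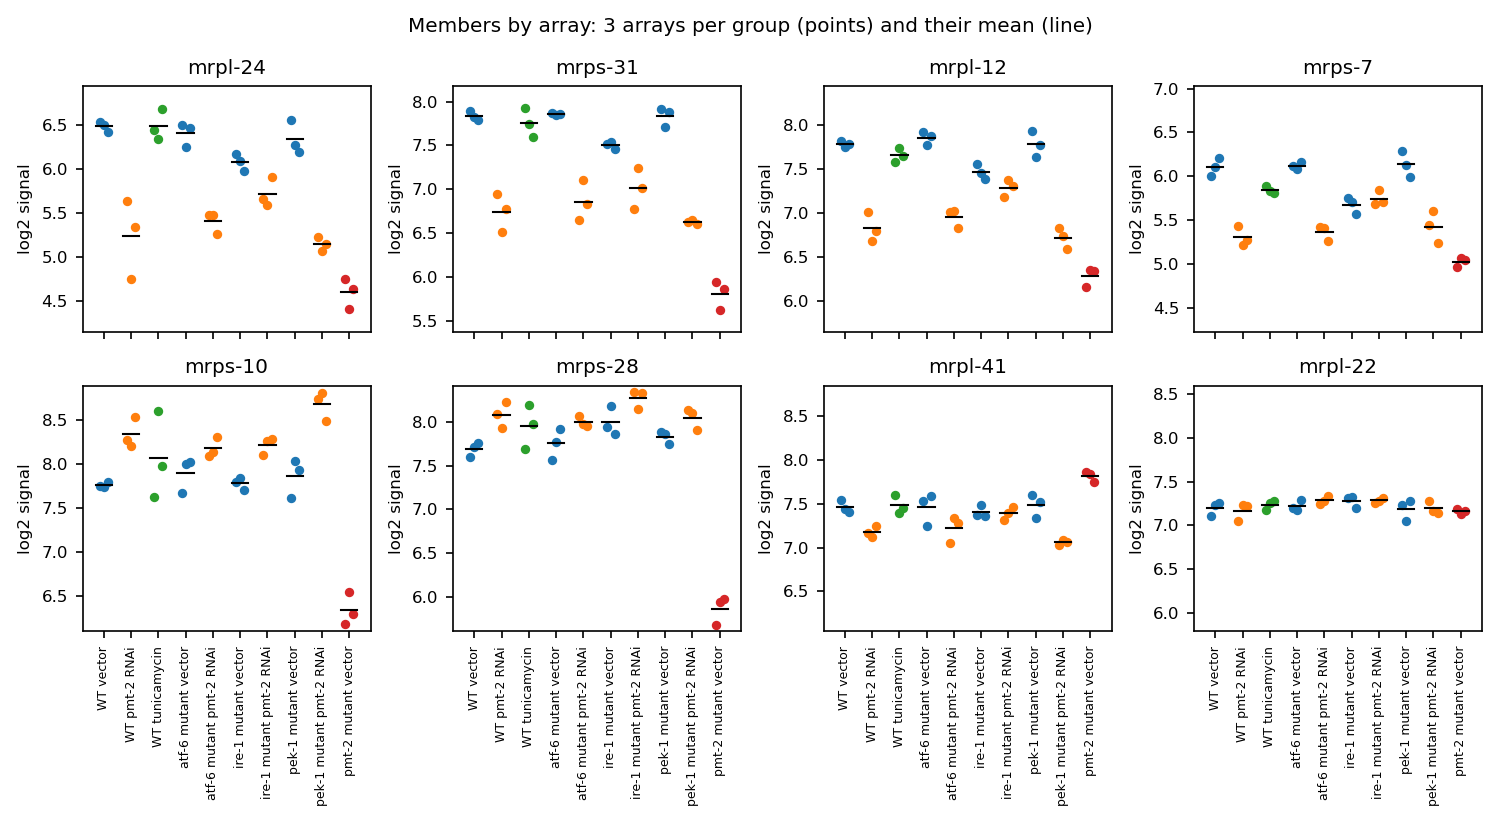
Log2 signal of 8 genes on all 30 arrays, 3 points per group, with the group mean as a line and an equal span on each vertical axis. mrpl-24, mrps-31, mrpl-12 and mrps-7 are low with RNAi in wild type, mrps-10 and mrps-28 are high there and low in the pmt-2 mutant, mrpl-41 is highest in the mutant, and mrpl-22 is level with group means from 7.16 to 7.29.

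Markers of other tissues moved in both settings. Of 20 germ line and oocyte markers, 12 fell and 1 rose with RNAi in wild type (median -0.45), and all 20 fell in the pmt-2 mutant (median -6.14), where 13 had a mean under 5. The log2 of their summed signal was 15.37 to 15.45 on the vector arrays, 14.64 to 15.34 with RNAi and 9.27 to 9.41 in the mutant. Neuronal markers rose in 17 of 19 with RNAi and 18 of 19 in the mutant. Of 11 sperm markers 4 rose with RNAi and 9 fell in the mutant. All 11 had a mean under 5 in the mutant, against 5 of them on the wild-type vector. In RNA of whole animals, fewer cells of a type and less RNA per cell cannot be told apart. The part of tissue composition in the falls was not tested. Whether the mutant matched wild type in developmental stage was not tested either.

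Within the wild-type RNAi arrays the second was lowest in both the germ line markers (median difference -0.80, against -0.16 and -0.38) and the ribosomal proteins (-0.69, against -0.50 and -0.57). Without it 53 genes passed and their median was -0.54. The 3 arrays had 62, 60 and 61 of the 65 genes below the wild-type vector mean, where the vector arrays themselves had 27, 43 and 30. Intestine markers (5 of 14 lower, 3 higher) and body muscle markers (4 of 15 lower, 2 higher) were mixed with RNAi. In the mutant 7 of 14 intestine markers fell and 5 rose, and 6 of 15 muscle markers fell and 4 rose.

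Other genes of mitochondrial translation fell with RNAi in wild type too. All 9 measured translation and assembly factors fell (median -0.49), among them noa-1 (-0.85, SE 0.12), a GTPase of ribosome assembly, and the elongation factor gene tsfm-1 (-0.71, SE 0.11). dap-3, which encodes a further small-subunit protein under another name, fell by 0.76 (SE 0.12). Of 12 mitochondrial aminoacyl-tRNA synthetases 11 fell (median -0.57), among them iars-2 (-0.80), nars-2 (-0.67) and dars-2 (-0.64). In the pmt-2 mutant 9 of 9 factors and 10 of 12 synthetases fell.

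Of the messages that these ribosomes translate, those of 12 mitochondrially encoded subunits, 7 fell with RNAi (median -0.48), among them nduo-3 and nduo-4 of complex I (-0.86, SE 0.19, and -0.60, SE 0.18) and ctb-1 of complex III (-0.57, SE 0.11). In the pmt-2 mutant 5 of 12 fell (median -0.31). Of 6 genes of mitochondrial genome expression, the DNA-binding protein mtss-1 (-0.80), the packaging factor hmg-5 (-0.49) and the RNA polymerase rpom-1 (-0.35) fell with RNAi, and the helicase gene twnk-1 (0.65) and tfbm-1 (0.27) rose. In the mutant 5 of these 6 fell and twnk-1 rose.

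Of 14 genes of the mitochondrial stress response, 6 fell and 3 rose with RNAi. The chaperonin hsp-60 fell by 0.79 (SE 0.08), whereas dve-1 (1.31, SE 0.12) and atfs-1 (0.66, SE 0.09), which encode transcription regulators of that response, rose. The chaperone hsp-6 changed by -0.01 (SE 0.08, adjusted p = 0.963). In the mutant 10 of the 14 fell and 4 rose. Of 78 cytosolic ribosomal proteins 34 fell and 5 rose with RNAi (median -0.18), and 15 fell and 3 rose in the mutant (median -0.05).

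**Figure D4:**
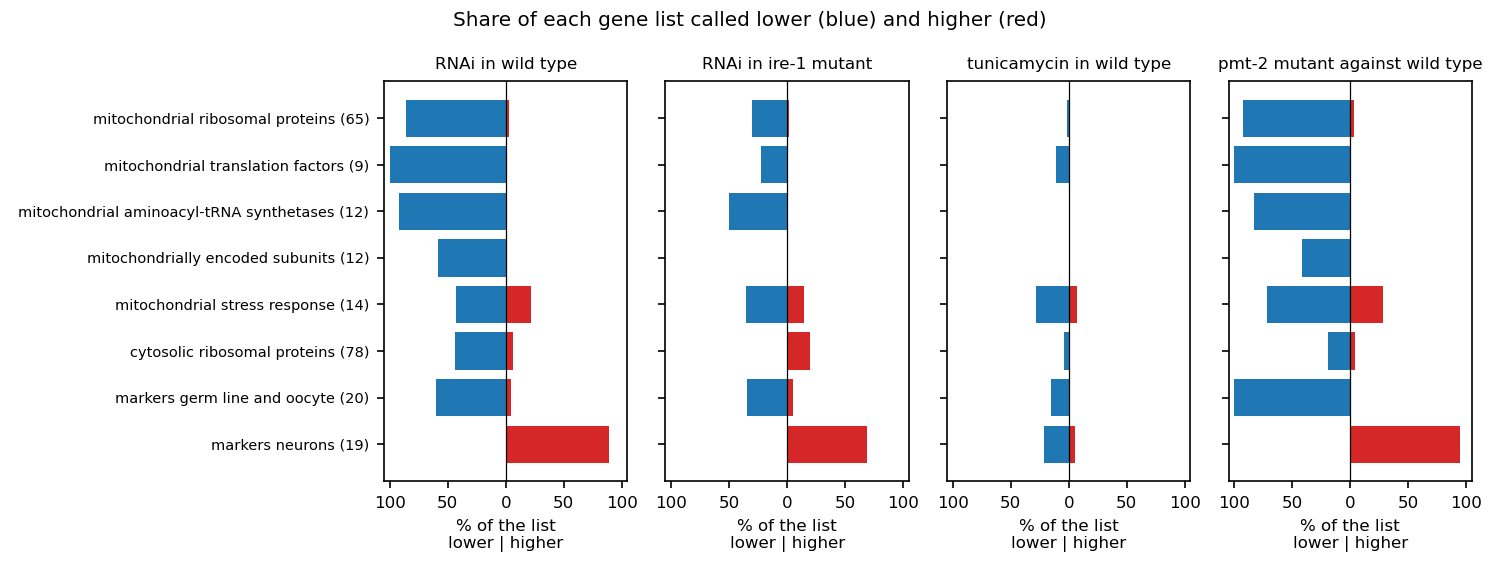
Share of each gene list that was lower (blue, left) or higher (red, right) at an adjusted p below 0.05, in 4 comparisons; list sizes are in brackets. Mitochondrial ribosomal proteins, translation factors and synthetases are mostly lower with RNAi in wild type (56 of 65, 9 of 9 and 11 of 12) and in the pmt-2 mutant, beside germ line markers (12 of 20 and 20 of 20).

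Tunicamycin changed 1 of the 65 genes at an adjusted p below 0.05. This was mrpl-23, of the tunnel exit: its arrays read 5.62, 5.60 and 5.67 against 6.08, 6.16 and 6.41 on the vector, without overlap (-0.58, SE 0.14, adjusted p = 0.00390). By the FDR p-value of the authors' deposited table, none (0) of the family passed, where 6.02% of all probe sets did. All 3 tunicamycin arrays lay below all 3 vector arrays on 15 genes, which held for 14.1% of all probe sets. They lay above on 2 genes, which held for 15.6% of all probe sets. The median change was -0.09, where 16.6% of all probe sets passed, 8.37% as lower, and 9 of the 65 had an unadjusted p below 0.05. Without the first or the second tunicamycin array 4 and 2 genes passed. Against wild type on RNAi the tunicamycin group was higher in 53 genes and lower in 0 (median 0.50), where 39.7% of all probe sets passed, 22.2% as higher. mrpl-24 (1.25, SE 0.16), mrps-31 (1.01, SE 0.13) and mrpl-20 (0.92, SE 0.17) differed most. The 2 groups differ in duration as well as in agent. Of the other lists, 1 translation factor fell with tunicamycin (noa-1, -0.45), 0 synthetases and 0 mitochondrially encoded subunits passed limma's test (2 and 0 at an unadjusted p below 0.05), 3 germ line markers fell, and 7 of 11 sperm markers fell. Of the muscle markers 8 of 15 fell, of the intestine markers 6 of 14 fell and 3 rose, and of the neuronal markers 4 of 19 fell and 1 rose.

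On the vector, in the animals labelled atf-6 and pek-1 knockouts 0 of 65 genes passed limma's test and 0 had an unadjusted p below 0.05 (medians 0.00 and 0.01), where 0.194% and 0.113% of all probe sets passed. In the ire-1 mutant 57 of 65 genes were below wild type, with a median of -0.18, where the median over all probe sets was -0.01. An unadjusted p below 0.05 was seen for 25 of the 65. The shares of all probe sets for these counts are not given here. All 3 ire-1 arrays lay below all 3 wild-type arrays on 35 genes, which held for 13.7% of all probe sets. 4 fell after adjustment, against 6.16% of all probe sets, 3.18% as lower: mrps-17 (-0.47, SE 0.09), mrpl-23 (-0.47, SE 0.14), mrps-7 (-0.43, SE 0.10) and mrps-26 (-0.35, SE 0.10), the last named because the count is small. The median held between -0.17 and -0.19 without any 1 array, but the count fell to 1 without the third ire-1 vector array, to 1 without the third wild-type vector array and to 2 without the second. Of the markers, 6 of 14 for the intestine fell in the ire-1 mutant on the vector, with a summed log2 signal of 13.92 to 14.02 against 14.44 to 14.59 in wild type, 1 of 20 for the germ line fell, and 3 of 19 for neurons rose. Their part in the lower family median was not tested. The count of family members was 0 by the FDR p-value of the authors' deposited table (1.05% of all probe sets) and 0 with the spread of these 2 groups alone.

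With pmt-2 RNAi, 55 of 65 genes fell in the atf-6 mutant (0 rose, median -0.55, with 29.9% of all probe sets called, 16.1% as lower) and 56 fell in the pek-1 mutant (1 rose, median -0.69, with 43.9% called, 25.2% as lower and 18.7% as higher). mrpl-24 fell by 1.00 and 1.19, mrps-31 by 1.00 and 1.21, and mrpl-49 by 1.23 in the pek-1 mutant. The gene that rose in the pek-1 mutant was mrps-10 (0.82, SE 0.17). Germ line markers fell in 6 of 20 in the atf-6 mutant and in 15 of 20 in the pek-1 mutant, where 1 rose. These genotypes share no arrays, and 52 of the 65 genes fell in wild type, atf-6 and pek-1 mutants alike, as did 10.5% of all probe sets. Tests of the difference in response from wild type called 0 genes in either mutant, with 0 and 1 genes at an unadjusted p below 0.05, where 0.0282% and 1.24% of all probe sets passed.

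In the ire-1 mutant the same RNAi lowered 20 of the 65 genes and raised 1, mrps-11 (0.31, SE 0.11). The median was -0.22, where 28.1% of all probe sets passed, 13.8% as lower and 14.3% as higher. The share among brighter probe sets is not given for this comparison. All 3 RNAi arrays lay below all 3 vector arrays of this mutant on 39 genes, which held for 24.7% of all probe sets. mrpl-20 (-0.51, SE 0.17), mrps-31 (-0.49, SE 0.13) and mrpl-39 (-0.45, SE 0.13) fell most. All 20 that fell here fell in wild type too. Over all probe sets 13.8% fell here and 8.39% fell both here and in wild type. Of the 52 that fell in the other 3 genotypes, 32 did not fall here by this test. Over all probe sets 10.5% fell in those 3 genotypes, and 4.11% fell in them but not here. The count of 21 called was unstable: it was 7 without the first ire-1 RNAi array, 12 without the third, 10 without the first ire-1 vector array and 10 without the second. The median stayed between -0.20 and -0.26.

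The difference between these responses was tested directly. The response in the ire-1 mutant was above that in wild type for 63 of 65 genes, and the median difference was 0.35, against 0.02 over all probe sets. By construction this difference takes in both the lower ire-1 level on the vector (median -0.18) and the higher level on RNAi (median 0.18). It is thus not a result separate from those. The share of all probe sets for the 63 is not given here. 10 genes passed and all 10 were higher, where 6.25% of all probe sets passed, 3.12% as higher. The largest difference was that of mrpl-24 (0.89, SE 0.23, adjusted p = 0.0155), whose ire-1 mutant arrays read 6.17, 6.09 and 5.97 on the vector and 5.66, 5.58 and 5.90 with RNAi. Its groups did not overlap in the ire-1 mutant either, but stood closer than in wild type. mrps-7 (Y57G11C.34, chromosome IV: 14766733 to 14767705, minus strand), the counterpart of a bacterial protein of the subunit head, read 5.76, 5.71 and 5.57 on the vector and 5.68, 5.84 and 5.71 with RNAi. These overlapped, whereas in wild type it fell from 6.003, 6.10 and 6.21 to 5.43, 5.22 and 5.27, and the difference was 0.86 (SE 0.14, adjusted p = 0.000232). mrpl-12 read 7.55, 7.46 and 7.38 on the ire-1 vector arrays and 7.18, 7.38 and 7.30 with RNAi. These lay next to each other without overlap, and its difference was 0.78 (SE 0.15, adjusted p = 0.00103).

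**Figure D5:**
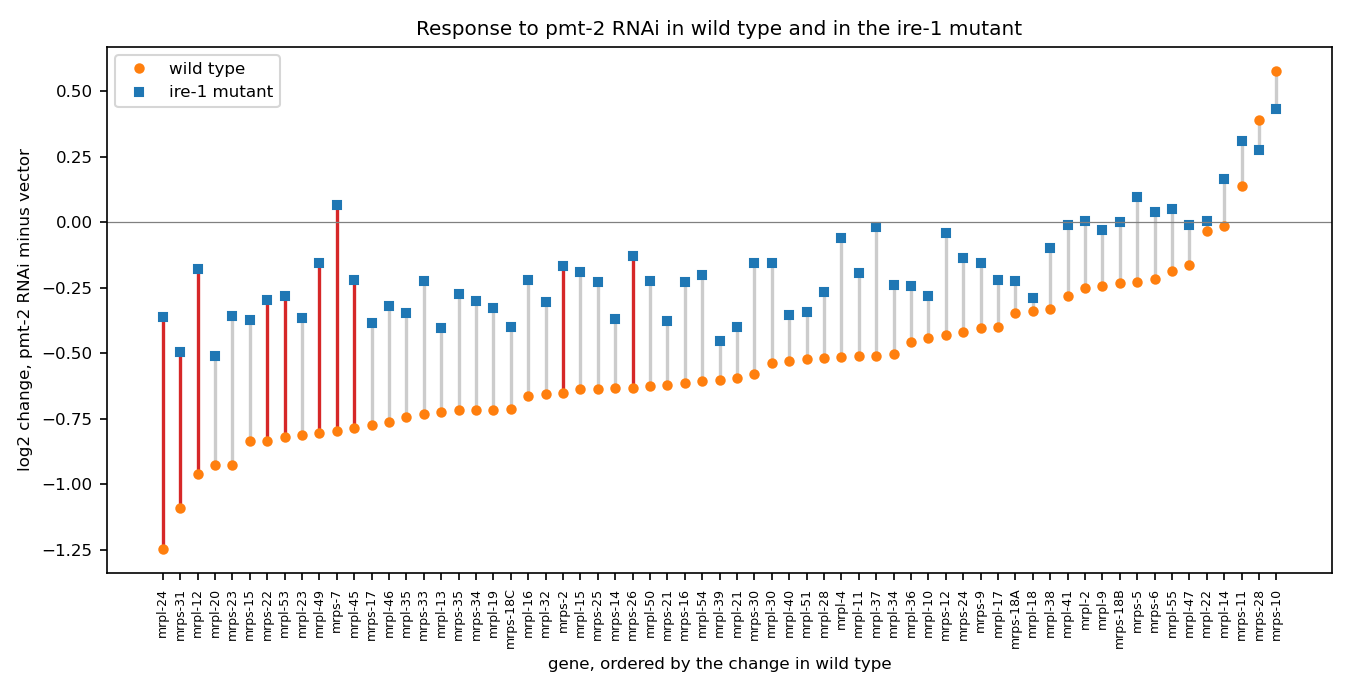
Log2 change with pmt-2 RNAi of each of the 65 genes in wild type (circles) and in the ire-1 mutant (squares), ordered by the change in wild type; a red line marks the 10 genes whose responses differed at an adjusted p below 0.05. The square lies above the circle for 63 genes.

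The count of 10 differing responses ranged from 5 to 15 when 1 array was left out. It was 6 without the second wild-type RNAi array, the one with the lowest germ line markers, and the median difference was then 0.29. It was 6 without the second or the third wild-type vector array, the first ire-1 vector array or the first ire-1 RNAi array. It was 5 without the first wild-type vector array, the third ire-1 vector array or the second ire-1 RNAi array. With the spread of the 4 groups alone it was 2.

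pmt-2 itself moved with this result. On the vector it fell by 0.50 in the ire-1 mutant (SE 0.11, adjusted p = 0.00772). It fell from 9.66, 9.69 and 9.60 to 7.52, 7.54 and 7.35 in the ire-1 mutant, and from 10.1, 10.2 and 10.1 to 6.80, 6.65 and 6.45 in wild type. With RNAi pmt-2 fell by 2.18 in the ire-1 mutant, where in wild type it fell by 3.51, a difference of 1.33 (SE 0.16, adjusted p = 3.55e-06). In the pek-1 mutant pmt-2 fell by 2.90, a difference from wild type of 0.61 (adjusted p = 0.0613), and in the atf-6 mutant by 3.37. With tunicamycin in wild type, where the family's median change was -0.09, pmt-2 fell by 1.44 (SE 0.11, adjusted p = 5.34e-10). The part of the smaller pmt-2 fall in the ire-1 result was not tested. Germ line markers fell in 7 of 20 and rose in 1 with RNAi in the ire-1 mutant (median -0.36), and their response differed from that in wild type in 2 genes. Their summed log2 signal on RNAi was 14.97 to 15.14 in the ire-1 mutant, inside the wild-type range of 14.64 to 15.34. Responses also differed in 3 of 15 muscle markers, all higher in the ire-1 mutant, in 5 of 14 intestine markers, 4 of them higher, and in 2 of 19 neuronal markers, both lower. Of the 11 sperm markers 0 passed limma's test, with 2 at an unadjusted p below 0.05.

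On RNAi, the ire-1 mutant was above wild type in 59 of 65 genes (median 0.18, against 0.0006 over all probe sets). This comparison was added after the data were seen. 3 genes passed, against 7.39% of all probe sets, 3.64% as higher: mrpl-12 (0.46, SE 0.10), mrps-7 (0.44, SE 0.10) and mrps-2 (0.32, SE 0.09). Without the first wild-type RNAi array 6 genes passed, and with the spread of the 2 groups alone 0 did. The call of mrps-2 was lost without the first or the third ire-1 RNAi array, or the second or the third wild-type RNAi array (0.29 to 0.32).

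Of the 9 translation and assembly factors 2 fell with RNAi in the ire-1 mutant, and noa-1 differed in its response (0.75, SE 0.17). Of the synthetases 6 of 12 fell and iars-2 differed in its response (0.48, SE 0.15). Of the 12 mitochondrially encoded subunits 0 passed limma's test with RNAi in the ire-1 mutant, with 3 at an unadjusted p below 0.05, and 0 differed in response, with 4 at an unadjusted p below 0.05. Cytosolic ribosomal proteins differed in response in 26 of 78, all higher (median 0.31), where 6.25% of all probe sets passed, 3.12% as higher. With RNAi in the ire-1 mutant 15 of these proteins were higher and 0 lower. A higher response in the ire-1 mutant was thus not particular to the mitochondrial family.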

How the data were processed

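Total RNA of whole worms (300 ng) was labelled and hybridised to Affymetrix arrays, 3 per group, per the labels' protocols. RMA was applied by the authors, per the submitters' processing notes, with no version given. The deposited matrix holds log2 signals per array; its SDs matched those of the authors' deposited tables within 0.005, and the 28387 probe sets of those tables were used. The deposited tables hold group means on the log2 scale, fold changes (ratios) and p-values with FDR p-values. The source labels of the wild-type RNAi and tunicamycin groups are exchanged relative to titles and treatments, and the latter were used.

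limma 3.58.1 in R 4.3.3 (lmFit, eBayes) was fitted to all 30 arrays with 10 group means and no filter. p-values were adjusted by Benjamini-Hochberg over all probe sets of a comparison, with a threshold of 0.05. On simulated data for RNAi in wild type (28387 probe sets), the fit recovered 63.3% of 1.5-fold, 94.3% of 2-fold and 99.4% of 4-fold changes, and 4.89% of calls were false. The number of arrays limits the precision. RefSeq gene names matched all 65 members, 64 with an unchanged symbol and mrpl-14 as F45E12.5.

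Members and lists were chosen with earlier results of these data known. Named genes are the 5 genes that rose most and the 5 that fell most (adjusted p below 0.05) with RNAi in wild type, tunicamycin and the pmt-2 mutant, the 3 largest elsewhere, the most and least variable genes, mrps-5, mrps-12, mrpl-10, mrpl-11 and mrpl-12, and up to 3 genes per list; others were chosen after their values were seen. Levels of different probe sets were not compared, so the rule's genes of highest and lowest mean were not ranked. Alternatives were the replicate number as a block, each array left out, the spread of the compared groups alone, a trended robust prior, centring, quantile normalisation, dim probe sets left out, the deposited means and SDs, and the authors' FDR p-values. mrpl-55 was first grouped with the bacterial counterparts and was moved, after its values were seen, because its family is mitochondria-specific. era-1 was left out of its list because the worm gene of that name is another gene. No sequence was used here. Figures were drawn with matplotlib 3.10.9.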

Additional observations from a re-analysis of the deposited data

Results flagged for a closer look

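The response to pmt-2 RNAi differed between the ire-1 mutant and wild type in 10 genes by limma's interaction test, each higher in the mutant. The differences were 0.89 for mrpl-24, 0.86 for mrps-7, 0.78 for mrpl-12, 0.65 for mrpl-49, 0.60 for mrps-31, 0.56 for mrpl-45, 0.54 for mrps-22, 0.54 for mrpl-53, 0.50 for mrps-26 and 0.48 for mrps-2, on the log2 scale. pmt-2 itself differed by 1.33 in the same test. Cytosolic ribosomal proteins also held genes with a higher response in the mutant, so this was not particular to the family. The test also takes in the lower level of the family in the ire-1 mutant on the vector.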

How the results depend on the processing

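No direction of a named change or of a called median turned under the alternatives that were run, and 42 of 77 named changes passed under every one. With arrays centred on their medians the family's median change was -0.68 for RNAi in wild type, -0.75 for RNAi in the pek-1 mutant, -1.32 for the pmt-2 mutant, -0.26 for the ire-1 mutant and 0.42 for the difference in response of the ire-1 mutant. From the deposited means it was -1.14 for the pmt-2 mutant, both with the FDR p-value of the authors' deposited table and with the rebuilt statistic. The authors' deposited table called 33 genes for RNAi in wild type, 0 for the ire-1 mutant and 0 for tunicamycin. Without dim probe sets, where fewer are tested, 10 genes passed for the ire-1 mutant, 11 for the ire-1 mutant against wild type on RNAi, 20 for the difference in response and 4 for tunicamycin. With the spread of the compared groups alone these were 0, 0 and 2 for the first 3. Centring called 8 for the ire-1 mutant, the trended prior 2 for tunicamycin, and the rebuilt statistic 6 for the ire-1 mutant on RNAi. The cause of these shifts was otherwise not tested. Except for the authors' FDR p-value, the share of all probe sets called under these settings is not given here. Those counts can therefore not be set against it.

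Leaving out 1 array gave 1 to 3 genes for the ire-1 mutant, 2 to 6 for it against wild type on RNAi, 7 to 14 for RNAi in the ire-1 mutant, 5 to 15 for the difference in response and 1 to 4 for tunicamycin. The medians ran from -0.26 to -0.20 for RNAi in the ire-1 mutant, -0.73 to -0.61 for RNAi in the pek-1 mutant, 0.29 to 0.38 for the ire-1 difference in response and -0.152 to -0.0236 for the pek-1 one.

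Replicate numbers are shared by the groups, and the labels state no pairing by them. Deviations of same-numbered arrays correlated between -0.256 and 0.267 (median 0.008), where the median for other numbers was -0.002. Of the 30 arrays 15 were closest to their own number, which does not settle whether some arrays are paired. With the replicate number as a block the median for RNAi in wild type was -0.60, no count moved by over 1.5 times, and 4 of the 77 named changes no longer passed. Averaging several probe sets per gene was not run, because each member has 1. All values are signals of 3 arrays, and 1 gene, mrpl-54, stayed under 5 in every group.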
